A study of Mus musculus with 75 samples.

Results

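The 33 genes described here encode enzymes, sensors and carriers of sterol and fatty acid synthesis that are known as targets or partners of the SREBP transcription factors. They were chosen by name from what is known of the pathway, at a time when earlier results of these data were known. Of the 33, 32 were matched among the 37310 gene identifiers of the cortex and nuclei files, and all 33 among the 55487 of the hippocampus files. Hmgcs1 was matched in the hippocampus files only. No matched gene was lost to the filter on low counts in any comparison.

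The series asks what the isoforms of DNMT3A, an enzyme that methylates DNA de novo, do in mouse postnatal development. RNA was sequenced from C57BL/6 mice at postnatal day 21 in 26 libraries, which form 10 groups. The mutants carried Dnmt3a1-/- (the long isoform), Dnmt3a2-/- (the short isoform) or Dnmt3a1_delta_N (the long isoform without its N-terminal part), and every control was labelled wild type. Cerebral cortex was taken from 3 Dnmt3a1-/-, 2 Dnmt3a2-/-, 3 Dnmt3a1_delta_N and 8 wild type samples. The wild type titles carry plain numbers (3 libraries), numbers with r (2) or numbers with n (3). The plain libraries were set against Dnmt3a1-/-, the r libraries against Dnmt3a2-/- and the n libraries against Dnmt3a1_delta_N, although no label states this link. From hippocampus there were 3 libraries of Dnmt3a1-/- and 3 of wild type, and from NeuN-sorted cortical neuron nuclei 2 of each. The labels name no driver or Cre for the alleles and do not say whether each library is a separate animal, or whether tissues came from the same mice.

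Cholesterol is built from acetyl-CoA through the mevalonate steps, the isoprenoid steps to squalene and a long run of reactions from lanosterol. When sterol in the endoplasmic reticulum is low, SCAP carries the SREBP proteins to the Golgi, where they are cut, and the freed fragments switch on these genes, while INSIG proteins hold SCAP back when sterol is high. The brain makes its own cholesterol behind the blood-brain barrier, much of it for myelin, and postnatal weeks are a time of heavy synthesis.

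The sequences before the gene starts are shown for members that the results below turn on. RefSeq windows (build GRCm38.p6) from 250 bases before to 50 after the start were given for 26 of the 33 genes. Fdps, Fdft1, Sqle, Stard4, Scd1, Scd2 and Fads1 had no window in the table used. Each line below gives 30 bases, 5′ to 3′ on the strand of the gene, and the capitals mark the motif. The first is the sterol regulatory element core TCACNCCAC, the next 4 hold CCAAT, the box bound by NF-Y, or its reverse complement ATTGG, and the last 3 hold the E-box CACGTG, which SREBP and other basic helix-loop-helix factors can bind.
Hmgcs1 at chr13:119690204-119690233, plus strand: cgtcaccgtcTCACCCCACttcccaggtcc
Msmo1 at chr8:64733657-64733686, minus strand: ccttagcacggaCCAATcactgcacggcga
Cyp51 at chr5:4104709-4104738, minus strand: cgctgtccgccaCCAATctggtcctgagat
Dhcr7 at chr7:143830117-143830146, plus strand: tcactgccttcaCCAATcacaggacgcagc
Idi1 at chr13:8885549-8885578, plus strand: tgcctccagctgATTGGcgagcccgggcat
Hsd17b7 at chr1:169969331-169969360, minus strand: ggacccttgtgtCACGTGgctccgcccctc
Sc5d at chr9:42264381-42264410, minus strand: ctacgcggcgacCACGTGaccgccgcgacc
Insig1 at chr5:28071299-28071328, plus strand: gctgggtgaggtCACGTGgctccggtggca

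CCAAT stood on one strand or the other in at least 1 window of 21 of the 26 genes (80.8%). This held for 41.1% of 27025 genes and 42.3% of the 11571 genes tested in cortex that had a window. Some of the 26, Dhcr7 and Srebf1 among them, had more than 1 window, so more bases were searched for them. Acat2, Scap, Acaca, Elovl6 and Fads2 held none. The 3 CCAAT boxes of Msmo1 began 55, 96 and 160 bases before its start. The E-box stood in 5 of the 26 genes (19.2%), Hsd17b7, Sc5d, Dhcr7, Scap and Insig1, against 8.09% of all genes and 11.3% of the tested ones. In Dhcr7 the E-box and the CCAAT boxes lay before different starts. The sterol element core stood only in Hmgcs1 among the 26, 137 bases before the start, against 1.44% of all genes. GGGCGG, the box bound by SP1, stood in 21 of the 26 (80.8%), against 38.2% of all genes and 66.9% of the tested ones. Both strands were searched, and 0 matches of different motifs overlapped in these genes. A match describes the letters only.

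As a check of the labels, Dnmt3a stood at 73.2, 80.7 and 74.0 CPM (counts per 1 M gene counts, M for mega) in Dnmt3a1-/- cortex and at 152, 165 and 146 CPM in the plain wild type libraries. In hippocampus it stood at 71.5, 76.1 and 72.3 CPM against 163, 149 and 134 CPM. In the nuclei labelled Dnmt3a1-/- it stood at 382 and 369 CPM against 405 and 399 CPM, so the level of Dnmt3a did not separate these nuclei as it did the tissues. In Dnmt3a2-/- cortex it stood at 132 and 144 CPM against 153 and 145 CPM, and in Dnmt3a1_delta_N cortex at 135, 139 and 139 CPM against 147, 162 and 163 CPM. Neither difference was called (adjusted p = 1 and 0.59), so the gene's total does not check these 2 labels. Gene counts per library ran from 8.68 to 39.05 M.

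In Dnmt3a1-/- cortex, 21 of the 32 genes fell and 1, Srebf1, rose (edgeR's quasi-likelihood F-test, adjusted p under 0.05, 3 libraries against 3). Of all 15933 genes tested, 8.91% were called lower and 8.95% higher. The median log2 fold change of the 32 genes was -0.34, against 0.006 for all genes, and 29 of the 32 stood below 0, as did 49% of all genes. In 27 of the 32 genes all mutant libraries lay below all wild type libraries, which held for 17.7% of all genes. When same-numbered libraries were blocked together, a pairing read from the values and not from the labels, 24 genes were lower and 1 higher, while 16% of all genes were called lower and 15.1% higher.

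**Figure D1:**
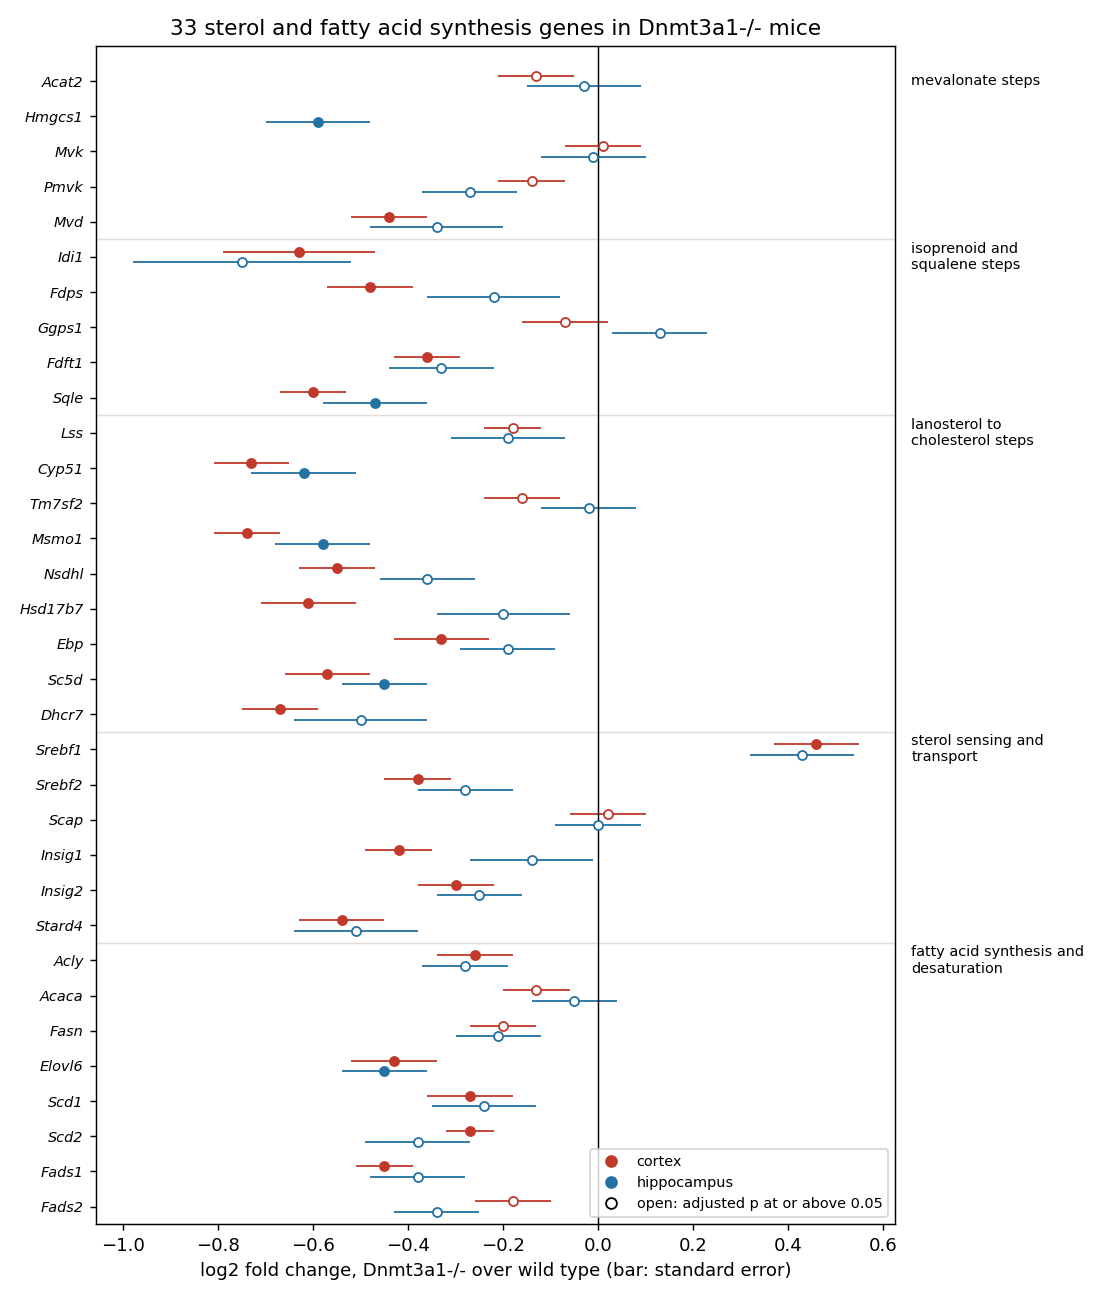
Log2 fold change of each gene in Dnmt3a1-/- over wild type, with its standard error, in cortex (red) and hippocampus (blue), 3 libraries against 3 in each. Filled points passed an adjusted p of 0.05: 21 lower and 1 higher of 32 in cortex, and 6 lower of 33 in hippocampus.

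In the run of enzymes from lanosterol to cholesterol 7 of 9 genes fell, with a median log2 change of -0.57 over the 9, the lowest median of the 5 roles. Msmo1, the oxidase that starts removal of the C4 methyl groups, stood at 134, 123 and 130 CPM in the mutant libraries and at 209, 209 and 226 CPM in wild type. The groups did not overlap, and Msmo1 fell by 40.2% (log2 -0.74 ± 0.07 SE, adjusted p = 4.8e-05).

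Cyp51, the lanosterol 14-alpha-demethylase, stood at 125, 120 and 129 CPM against 194, 193 and 230 CPM. It fell by 39.6% (log2 -0.73 ± 0.08 SE, adjusted p = 0.00017), again with no overlap. Dhcr7, the reductase that makes cholesterol itself from 7-dehydrocholesterol, stood at 37.1, 36.2 and 32.1 CPM against 53.7, 55.2 and 57.9 CPM. It fell by 37.1% (log2 -0.67 ± 0.08 SE, adjusted p = 0.00017), and its 3 mutant libraries lay far below the lowest wild type library.

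Nsdhl, the decarboxylating dehydrogenase that acts after Msmo1, stood at 29.6, 27.2 and 26.3 CPM against 39.9, 38.0 and 43.1 CPM. It fell by 31.7% (log2 -0.55 ± 0.08 SE, adjusted p = 0.00083). Sc5d, the desaturase that makes 7-dehydrocholesterol, stood at 69.7, 67.2 and 80.8 CPM against 103, 104 and 116 CPM, with no overlap, and fell by 32.5% (adjusted p = 0.00097). Hsd17b7, the 3-keto reductase that works with Msmo1 and Nsdhl, and Ebp, the sterol isomerase, also fell, with log2 changes of -0.61 and -0.33. The 2 genes of this run that missed the threshold were Lss, lanosterol synthase (-0.18 ± 0.06 SE, adjusted p = 0.056), and Tm7sf2, a sterol C14 reductase (-0.16 ± 0.08 SE, adjusted p = 0.2).

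Of the 5 genes from isopentenyl pyrophosphate to squalene epoxide, 4 fell, with a median of -0.48 over the 5. Sqle, squalene epoxidase, stood at 80.2, 77.5 and 81.9 CPM against 121, 118.7 and 123 CPM. The libraries of each group lay close together, and Sqle fell by 34.2% (log2 -0.60 ± 0.07 SE, adjusted p = 0.00012).

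Fdps, farnesyl diphosphate synthase, stood at 27.9, 26.7 and 26.4 CPM against 34.4, 36.1 and 42.2 CPM and fell by 28.3% (adjusted p = 0.0035). Fdft1, squalene synthase, stood at 51.3, 49.7 and 53.9 CPM against 62.5, 66.1 and 69.2 CPM and fell by 21.8% (adjusted p = 0.0041). Idi1, the isomerase that opens this run, was the scarcest gene, at 6.81, 5.60 and 8.80 CPM against 10.2, 10.4 and 12.5 CPM. It was read 80, 147 and 232 times in the mutant libraries, and its fall of 35.5% carried the widest error (log2 -0.63 ± 0.16 SE, adjusted p = 0.018). None of these 3 genes overlapped between groups. Ggps1, which makes geranylgeranyl diphosphate off the sterol line, differed by -0.07 ± 0.09 SE and was not called.

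Among the 4 mevalonate enzymes measured in cortex, Mvd alone fell. Mvd, which decarboxylates mevalonate diphosphate, stood at 19.2, 19.2 and 18.2 CPM against 24.7, 25.8 and 25.7 CPM, with no overlap, and fell by 26.1% (log2 -0.44 ± 0.08 SE, adjusted p = 0.0028). Acat2, the thiolase that starts the line, and the kinases Mvk and Pmvk were not called, with log2 differences of -0.13, 0.01 and -0.14 and adjusted p of 0.27, 0.96 and 0.2.

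The regulators split. Srebf2, which encodes the SREBP most tied to cholesterol genes, stood at 166, 179 and 164 CPM against 205, 229 and 225 CPM and fell by 22.9% (log2 -0.38 ± 0.07 SE, adjusted p = 0.0034). Srebf1, whose products are more tied to fatty acid genes, stood at 75.9, 94.0 and 77.2 CPM against 59.5, 65.7 and 54.1 CPM. It rose by 0.46 ± 0.09 SE on the log2 scale (adjusted p = 0.0048), the only member of the 32 to do so, and neither gene overlapped between these groups. Against the r wild type libraries Srebf2 differed by -0.10 and was not called by edgeR (adjusted p = 0.29). Its mutant values overlapped the r range of 174.8 to 189.4 CPM. Against the n libraries Srebf2 differed by -0.25 (adjusted p = 0.0079).

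Insig1, a sterol sensor that is itself an SREBP target, stood at 70.1, 63.5 and 67.7 CPM against 96.5, 86.4 and 85.2 CPM and fell by 25.2% (adjusted p = 0.0016). Stard4, a carrier of cholesterol between membranes, stood at 32.8, 27.9 and 29.1 CPM against 47.1, 39.1 and 43.6 CPM and fell by 31.4% (adjusted p = 0.0013). Insig2 stood at 35.2, 34.3 and 38.6 CPM against 42.0, 45.2 and 46.1 CPM and fell by 19.0% (adjusted p = 0.018). All 3 separated the groups fully, while Scap differed by 0.02 ± 0.08 SE and was not called.

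Of the 8 fatty acid enzymes 5 fell, with a median of -0.26 over the 8. Fads1, the delta-5 desaturase, stood at 381, 408 and 381 CPM against 541, 507 and 548 CPM and fell by 26.9% (log2 -0.45 ± 0.06 SE, adjusted p = 6e-04). Elovl6, which lengthens palmitate, stood at 56.4, 52.2 and 56.9 CPM against 64.1, 74.3 and 83.9 CPM and fell by 25.8% (adjusted p = 0.009). Both separated the groups fully.

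Scd2, the main stearoyl-CoA desaturase of brain and the most counted member, stood at 2764, 2792 and 2872 CPM against 3309, 3335 and 3468 CPM and fell by 16.9% (adjusted p = 0.005). Scd1 stood at 449, 496 and 531 CPM against 563, 554 and 661 CPM and fell by 17.3% (adjusted p = 0.046). Acly, which yields cytosolic acetyl-CoA, stood at 111, 120 and 129 CPM against 139, 140 and 150 CPM and fell by 16.5% (adjusted p = 0.033). These 3 were the smallest falls called. Fasn, fatty acid synthase, Acaca, acetyl-CoA carboxylase, and Fads2 were not called, with differences of -0.20, -0.13 and -0.18. Scd1 and Scd2 are close relatives, and reads they share may not have been told apart.

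**Figure D2:**
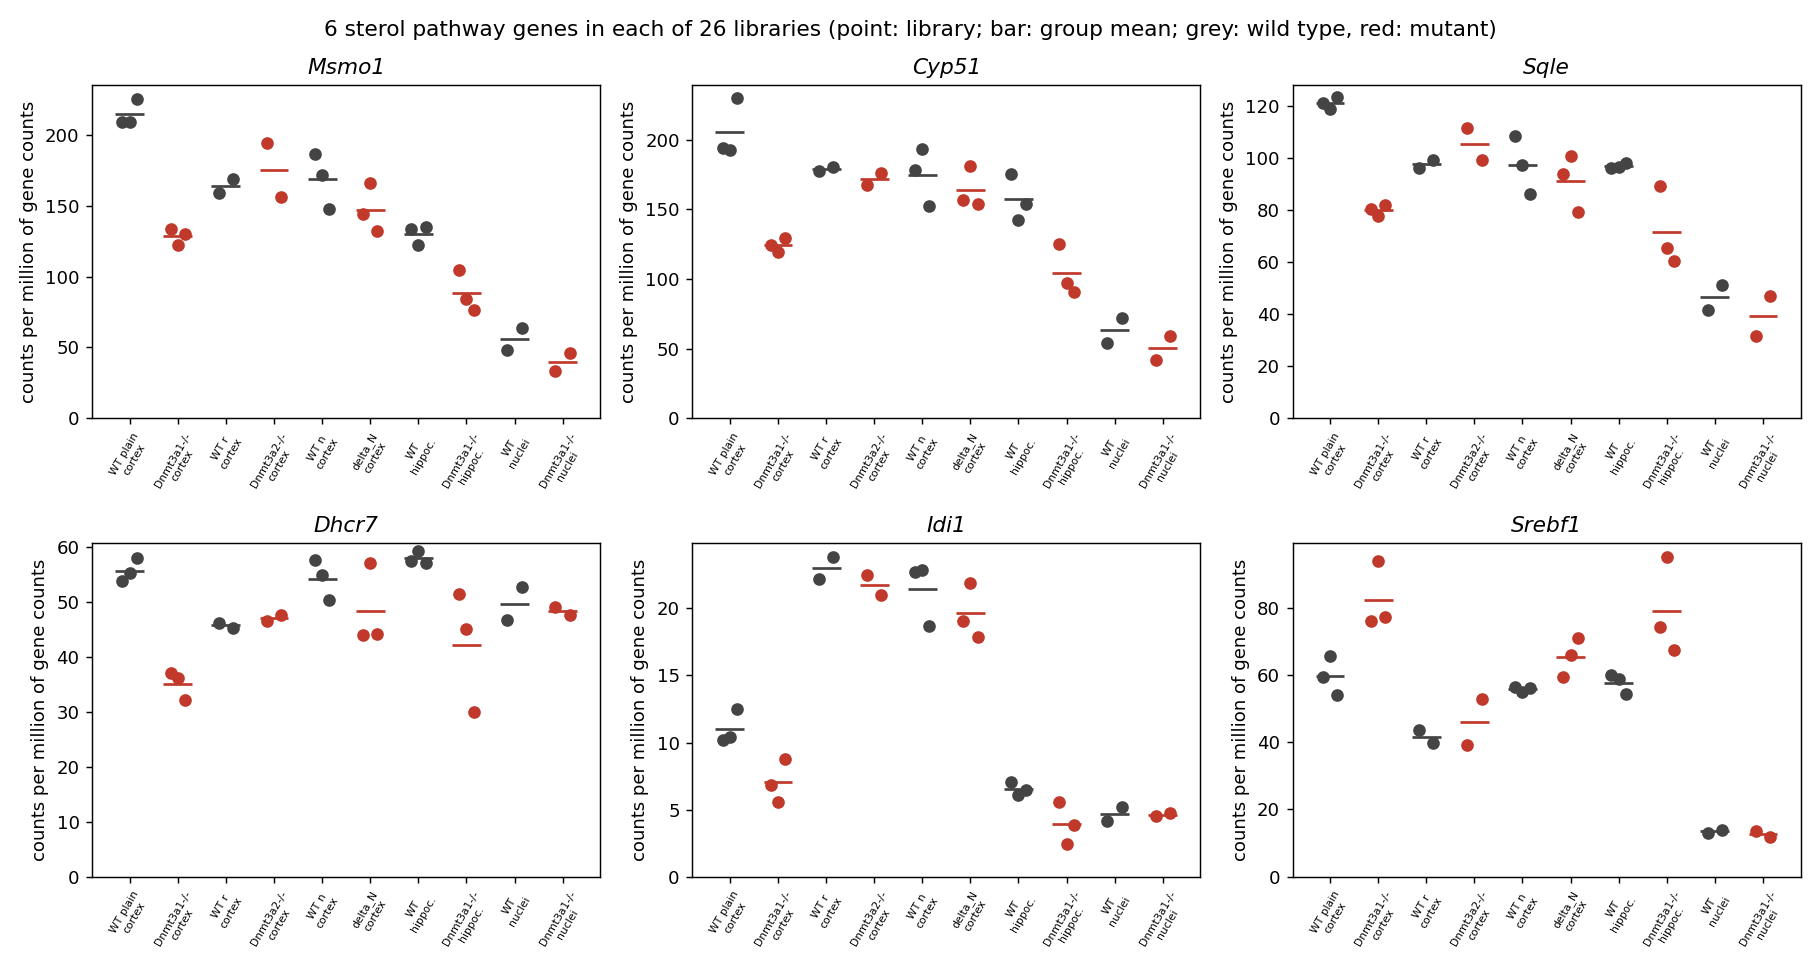
CPM of 6 genes in each of the 26 libraries (points) with group means (bars), on axes that start at 0, wild type in grey and mutants in red. The Dnmt3a1-/- cortex libraries of Msmo1 lay between 123 and 134 CPM, below each of the 8 wild type cortex libraries, and those of Srebf1 lay above each of the 8.

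The wild type cortex libraries did not form one level for these genes. Of the 32 genes, 14 were lower and 6 higher in the r series than in the plain one, when 16% of all genes were called lower and 17.2% higher. In the n series 6 were lower and 4 higher than in the plain one, against 9.42% and 10.6% of all genes, and 3 were lower and 8 higher than in the r series, against 13.8% and 13.5%. Idi1 stood at 22.2 and 23.8 CPM in the r libraries and at 22.7, 22.9 and 18.7 CPM in the n libraries, so all 5 lay above the plain wild type libraries. Fdps likewise stood at 48.2 to 58.0 CPM in these 5, while Scd2 stood at 2479 to 2882 CPM and lay below the 3 plain libraries.

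The series also differed in their counting. No read was set aside for low alignment quality in the plain, Dnmt3a1-/- cortex or hippocampus libraries, whereas at least 218991 were in each r and n library. Reads with more than 1 alignment made up 16.53% to 17.49% of the total in the plain libraries and 10.97% to 11.93% in the r and n libraries. The part of these differences in the levels of Idi1, Fdps or the other genes was not tested.

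Setting the Dnmt3a1-/- cortex libraries against each wild type series in turn, a check added after the data were seen, kept most of the falls. Against the r libraries 21 genes were lower and 5 higher (25.8% and 25.3% of all genes), and against the n libraries 20 were lower and 1 higher (17.6% and 18% of all genes). The 5 genes higher than in the r libraries were Srebf1, Mvk (0.45), Fasn (0.32), Scap (0.24) and Lss (0.17). The 21 are not the same genes as against the plain libraries: Acat2, Ggps1 and Acaca were among them and had not been called there. All 3 comparisons share the mutant libraries. A set of 16 genes was called lower against every series: Mvd, Idi1, Fdps, Fdft1, Sqle, Cyp51, Msmo1, Nsdhl, Hsd17b7, Ebp, Sc5d, Dhcr7, Insig1, Acly, Elovl6 and Fads1. The share of all genes called lower against every series was not counted, so how unusual these 16 are cannot be read from it.

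For 18 genes, these 16 with Insig2 and Acaca, all 3 mutant libraries lay below all 8 wild type cortex libraries, which held for 10.9% of all genes. Srebf1 lay above all 8, as did 9.52% of all genes. The size moved with the controls: Msmo1 differed by -0.74 against the plain, -0.35 against the r and -0.35 against the n libraries, while Idi1 differed by -0.63, -1.69 and -1.55. Scd1 (-0.27, 0.03 and 0.31) and Scd2 (-0.27, 0.16 and 0.13) were called lower against the plain series alone among the 3.

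**Figure D3:**
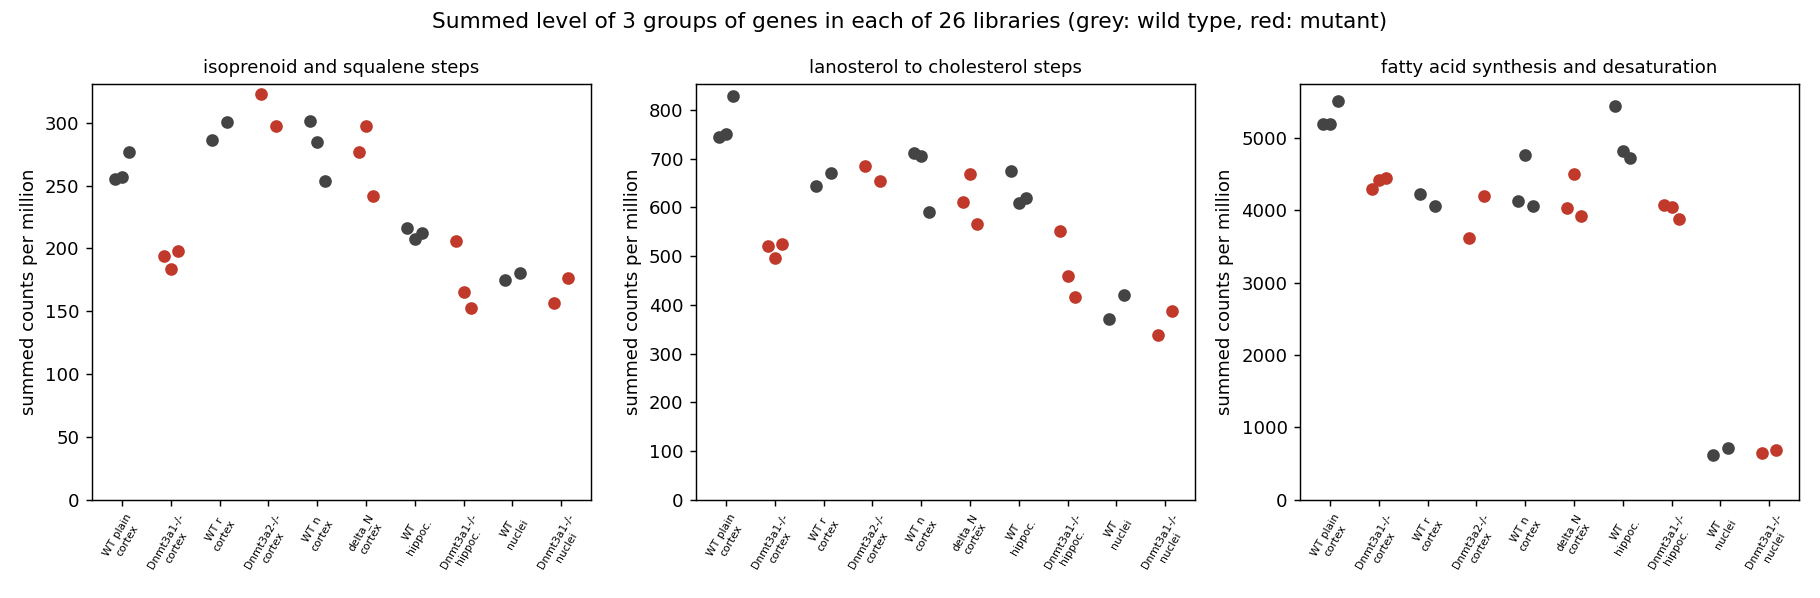
Summed CPM of the genes of 3 steps in each of the 26 libraries (points), on axes that start at 0, wild type in grey and mutants in red. In the lanosterol to cholesterol steps the Dnmt3a1-/- cortex libraries lay between 497 and 525 CPM, below all 8 wild type cortex libraries (590 to 830 CPM), and in fatty acid synthesis their 4289 to 4440 CPM lay within the range of the r and n wild type libraries.

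Markers of other cells also differed in this comparison, some higher and some lower. Their counts are to be read against the 8.91% of all genes called lower and the 8.95% called higher. The summed level of 12 choroid plexus markers was 126 to 763 CPM in the plain wild type and 834 to 2035 CPM in the Dnmt3a1-/- cortex libraries, with 0 of 12 called and a median log2 difference of 0.92. Of 14 mature myelin markers 0 were lower and 2 higher, and their sum was 17307 to 20503 CPM in wild type and 19825 to 23801 CPM in the mutant. Of 8 newly formed oligodendrocyte markers 3 were higher (sum 971 to 1002 against 1204 to 1273 CPM). Of 12 astrocyte markers 1, Aqp4, was lower and 3 were higher (15738 to 17122 against 16951 to 17770 CPM).

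In other lists some markers were called lower in the mutant, to be read against the same shares of all genes. Of 10 mural and meningeal markers 3 were called lower (median -0.30), and their sum was 610 to 859 CPM in wild type and 486 to 548 CPM in the mutant, without overlap. All 6 blood markers stood below 0 (median -1.12) with 1 called, and their sum was 523 to 828 CPM against 338 to 521 CPM. Of 10 inhibitory neuron markers 2 were lower and 9 stood below 0 (median -0.19, sum 907 to 1017 against 734 to 910 CPM). Of 11 excitatory neuron markers 3 were lower and 1 higher (sum 6015 to 6107 against 5725 to 6220 CPM). Of the endothelium markers 2 of 10 were lower and 1 higher, of the microglia markers 1 of 10 was lower, and of the oligodendrocyte precursor markers 1 of 7 was lower. The part of any of these cells in the results was not tested. In such tissue, fewer cells of a type and less RNA per cell cannot be told apart.

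Further genes around the pathway were counted by list, to be read against the 8.91% of all genes called lower and the 8.95% called higher. Of 20 other enzymes of fatty acid supply and elongation, 6 were lower and 1 higher (median -0.09). Acacb, the mitochondrial acetyl-CoA carboxylase that makes the malonyl-CoA restraining fatty acid oxidation, stood at 15.4, 17.8 and 16.3 CPM against 7.53, 7.79 and 7.76 CPM and rose by 1.11 ± 0.10 SE (adjusted p = 4.7e-05). Acss2, which makes acetyl-CoA from acetate, and Acsl4, an acyl-CoA synthetase, fell (log2 -0.48 and -0.58).

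Of 21 genes of sterol uptake, storage and efflux, 2 were lower and 2 higher (median -0.06), shares near those of all genes. Abca1, the cholesterol exporter that oxysterol receptors switch on, stood at 119.1, 126 and 115 CPM against 98.3, 98.2 and 86.4 CPM and rose by 0.34 ± 0.07 SE (adjusted p = 0.0054). Nr1h2, one of those receptors, rose by 0.29, and Vldlr, a lipoprotein receptor, fell (log2 -0.31). Of 15 genes of SREBP processing and turnover 3 were lower and 1 higher (median -0.05): Lpin1, a phosphatidate phosphatase, rose by 0.54, while Erlin1 and Fbxw7 were among the lower ones (log2 -0.37 and -0.27). On the side branches of the pathway, Nus1, a subunit of the enzyme that makes dolichol precursors, fell by 0.28 and Lbr, a sterol C14 reductase of the nuclear envelope, rose by 0.26 on the log2 scale.

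In Dnmt3a1-/- hippocampus 6 of 33 genes fell and 0 rose, when 0.827% of all 15727 genes tested were called lower and 1.69% higher. The median of the 33 was -0.28, and 31 stood below 0, as did 49% of all genes. In 18 genes all mutant libraries lay below all wild type libraries, as in 8.34% of all genes. The hippocampus has its own wild type group.

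Msmo1 stood at 105, 84.5 and 76.7 CPM in the mutant libraries and at 133, 122 and 135 CPM in wild type and fell by 33.3% (log2 -0.58 ± 0.10 SE, adjusted p = 0.0096). Cyp51 stood at 125, 96.9 and 90.8 CPM against 176, 142 and 154 CPM and fell by 35.0% (adjusted p = 0.012). Hmgcs1, the synthase that makes HMG-CoA, stood at 319, 256 and 244 CPM against 454, 385 and 369 CPM and fell by 33.4% (log2 -0.59 ± 0.11 SE, adjusted p = 0.016). In each, the first mutant library lay nearest to wild type, and no library overlapped.

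Sc5d stood at 96.4, 80.0 and 79.1 CPM against 118.8, 108 and 117 CPM and fell by 27.0% (adjusted p = 0.02). Elovl6 stood at 67.8, 56.1 and 53.4 CPM against 74.1, 83.7 and 79.3 CPM and fell by 26.7% (adjusted p = 0.025). Sqle stood at 89.3, 65.3 and 60.3 CPM against 96.0, 96.4 and 97.9 CPM and fell by 27.6% (adjusted p = 0.048). Srebf1 stood at 74.2, 95.0 and 67.5 CPM against 60, 58.7 and 54.3 CPM, a difference of 0.43 ± 0.11 SE that missed the threshold (adjusted p = 0.063) though the groups did not overlap. Such a separation upward held for 13.9% of all genes.

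The hippocampus calls rested on single libraries: without the second mutant library 0 genes were called, 1 without the third mutant library, 10 without the first, 3 without the third wild type library and 4 without the second. The median stayed between -0.34 and -0.21. DESeq2 called 11 lower and 1 higher, when it called 1.88% of all genes lower and 1.96% higher. Without the filter edgeR called 14 and 1, with 1.39% of all genes lower and 1.94% higher, so more genes were called in all under both alternatives. Choroid plexus markers summed to 561, 1871 and 63.0 CPM in the mutant libraries and 81.6 to 112 CPM in wild type. The third mutant library, with the lowest choroid sum of all 6, had the lowest value of Msmo1, Cyp51, Hmgcs1, Sc5d, Elovl6 and Sqle. It also had 27.22% of lines naming no gene and 16.94% of reads with more than 1 alignment. In the other hippocampus libraries these shares were 22.71% to 24.43% and 13.44% to 14.76%. The part of choroid plexus or of these read shares in the results was not tested. Outside the 33 genes, Acacb alone of the 4 further pathway lists was called (0.63 ± 0.14 SE, adjusted p = 0.032).

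The effect in cortex was not called different from that in hippocampus for any of the 32 shared genes. The smallest adjusted p of this interaction was 0.98, with 1 gene at an unadjusted p under 0.05, Hsd17b7 (-0.41 ± 0.19 SE), and DESeq2 called 0. Of all genes tested for this interaction 0% were called. This does not show that the 2 tissues respond alike.

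In Dnmt3a2-/- cortex 0 of the 32 genes were called in either direction by edgeR or DESeq2, as 0.00628% of all genes were, and 1 had an unadjusted p under 0.05. The median was 0.01. That gene, Scd1, stood at 324 and 460 CPM against 491 and 478 CPM (log2 -0.31 ± 0.14 SE, adjusted p = 1), its value set by the first mutant library. Fdft1 stood at 98.9 and 86.1 CPM against 80.0 and 82.9 CPM (0.18 ± 0.10 SE, adjusted p = 1). Choroid plexus markers summed to 19.0 and 1629 CPM in these 2 mutant libraries, and their lanosterol to cholesterol genes summed to 686 and 655 CPM. A link between these sums was not tested.

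The difference between the effects of Dnmt3a1-/- and Dnmt3a2-/- in cortex, each against its own wild type series, was called for 4 genes (0.12% of all genes were called in that direction). Msmo1 differed by -0.83 ± 0.13 SE (adjusted p = 0.014), Sqle by -0.71 ± 0.11 (0.014), Dhcr7 by -0.70 ± 0.11 (0.014) and Cyp51 by -0.66 ± 0.12 (0.042). The share of all genes in which every Dnmt3a1-/- library lay below every Dnmt3a2-/- library was not worked out. It was so in all 4 called genes, but a test on these same libraries had picked them, so it adds no support of its own. The series also differed in their counting. The count ran from 0, without the second r wild type library, to 7, without the second Dnmt3a2-/- library, and DESeq2 gave 12 (0.728% of all genes). Msmo1, Sqle and Dhcr7 were themselves lower in the r than in the plain wild type libraries, by 0.40, 0.32 and 0.30 on the log2 scale. Against the r libraries themselves, Dnmt3a1-/- cortex differed by -0.35, -0.29 and -0.38 for these 3 genes and by -0.52 for Cyp51.

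In Dnmt3a1_delta_N cortex 0 of the 32 genes were called by edgeR or DESeq2, when edgeR called 0 genes (0%) of all 15881, and 1 member had an unadjusted p under 0.05. The median was -0.06, and 24 of the 32 genes stood below 0, as did 48.8% of all genes. The SD of the library medians was 0.078, which describes single libraries and not a difference between groups. Srebf1 stood at 59.3, 65.9 and 71.1 CPM against 56.3, 54.9 and 56.0 CPM, without overlap (0.25 ± 0.08 SE, adjusted p = 0.56). All mutant libraries lay above all wild type ones in 5.74% of all genes. Ggps1 stood at 26, 26.9 and 24.2 CPM against 29.1, 27.9 and 29.1 CPM (-0.14 ± 0.07 SE, adjusted p = 0.65). Msmo1 differed by -0.18 ± 0.10 SE and its libraries overlapped. The difference from the Dnmt3a1-/- effect was called for 0 members by edgeR (0.0182% of all genes were called lower), the nearest being Cyp51 (-0.65 ± 0.13 SE, adjusted p = 0.068) and Fdps (-0.60 ± 0.12 SE, adjusted p = 0.076), with 17 genes at an unadjusted p under 0.05. DESeq2 called 8 (0.292% of all genes), and without the first Dnmt3a1_delta_N library edgeR called 6.

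**Figure D4:**
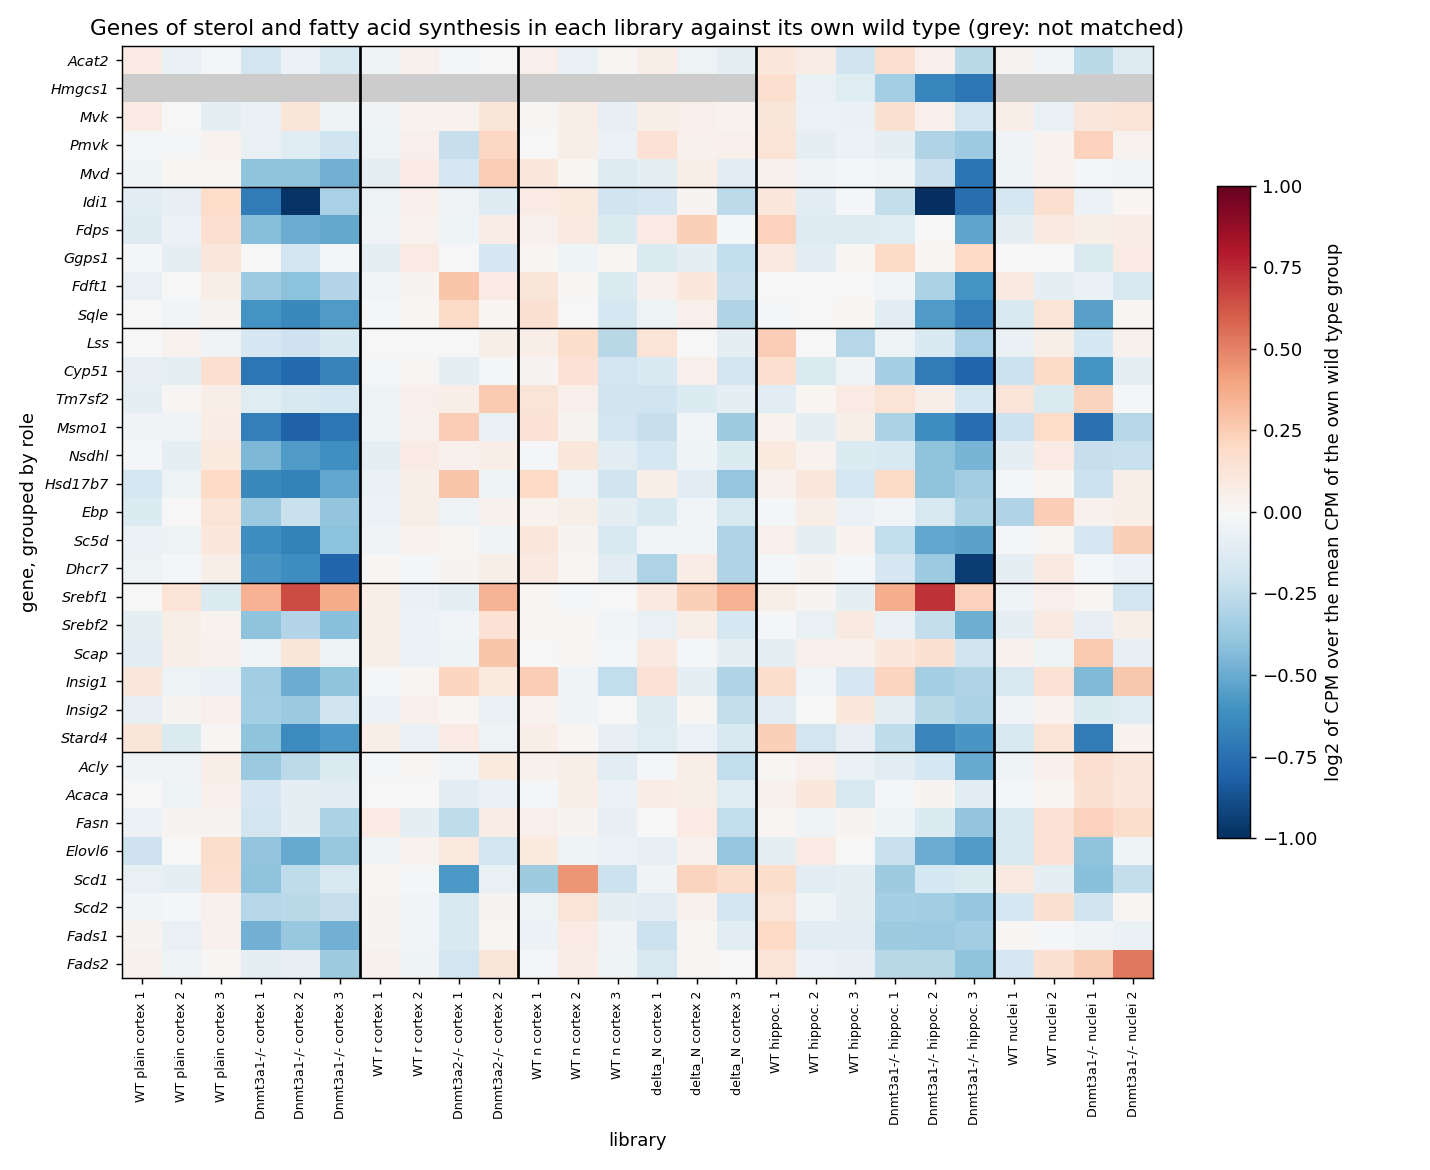
Log2 of each gene's CPM over the mean CPM of the library's own wild type group, in each of the 26 libraries, with genes grouped by role and values beyond 1 either way drawn at the end of the colour scale. Blue runs through most rows of the Dnmt3a1-/- cortex and the Dnmt3a1-/- hippocampus libraries, least in the first of these, Srebf1 is red there, and Hmgcs1 is grey where it was not matched.

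In the nuclei labelled Dnmt3a1-/-, 0 of the 32 genes were called by edgeR or DESeq2 (edgeR called 0.0315% of all genes lower and 0.214% higher), and 1 had an unadjusted p under 0.05. The median was -0.04. Msmo1 stood at 33.4 and 46.0 CPM against 48.5 and 63.8 CPM, without overlap (-0.50 ± 0.17 SE, adjusted p = 0.37). Fads2 stood at 9.91 and 12.1 CPM against 7.47 and 9.32 CPM, higher and also without overlap (0.39 ± 0.18 SE, adjusted p = 0.57). In 6 members both labelled libraries lay below both wild type ones and in 6 above, as in 19.6% and 18.9% of all genes. The effect of Dnmt3a1-/- in cortex differed from that in the nuclei for Dhcr7 alone (-0.64 ± 0.13 SE, adjusted p = 0.042, with 0.237% of all genes called lower), and the call was lost with RLE scaling and in 8 of the 10 fits that leave out 1 library. Dhcr7 stood at 49.1 and 47.6 CPM in these nuclei against 46.6 and 52.7 CPM.

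Wild type nuclei held a lower CPM of most of these genes than whole wild type cortex, given here without a test because the preparations differ. The median log2 ratio of the 32 genes, nuclei over plain cortex, was -0.82, with 26 below 0, against 0.43 for the 12703 genes above 1 CPM in both. Scd1 stood at 11.7 and 10.3 CPM in nuclei against a mean of 593 CPM in cortex, Fads2 at 7.47 and 9.32 CPM against 222 CPM and Scd2 at 227 and 285 CPM against 3371 CPM. These 3 had the lowest ratios. Lss, Tm7sf2, Ggps1, Scap, Insig2 and Acat2 stood above 0, Ggps1 at 48.2 and 48.4 CPM against a mean of 27.4 CPM. Excitatory neuron markers summed to 3556 and 3566 CPM in wild type nuclei against 6015 to 6107 CPM in plain wild type cortex, so they too stood lower there. The nuclei held 356 to 364 CPM of myelin markers and 830 to 854 CPM of astrocyte markers in wild type. Choroid plexus markers summed to 15.8 to 21.3 CPM in wild type nuclei and to 12.3 to 15.4 CPM in those labelled Dnmt3a1-/-. Kcnj13, which belongs to this list, was at 0 in all 4 nuclei libraries.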

How the data were processed

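Per the labels' protocols, RNA came from homogenized tissue or NeuN-sorted nuclei and stranded mRNA libraries were made. Per the submitters' processing notes, reads were aligned to mm9 with STAR 2.5.4a and counted with HTSeq 0.11.0; annotation release and strand setting are not given in the sources used here, so overlapping and antisense genes may share reads. The deposited values are counts, 1 library per file, with no normalization recorded. The members and lists were chosen with earlier results of these data known. Lines naming no gene (21.14% to 36.97% of reads) were left out. CPM is counts over the gene total of the same file, times 1 M. Genes were tested with edgeR 4.0.16 (R 4.3.3): filterByExpr, TMM, a robust quasi-likelihood F-test on the 2 groups compared, and Benjamini-Hochberg adjustment over all genes tested, called under 0.05. The SE is the log2 fold change over the root of F. Effects were compared by a contrast of 4 group means. P-values measure only the spread between libraries, which may be technical. Alternatives were DESeq2 1.42.0, RLE scaling, no filter, the replicate block, all 8 wild type cortex libraries and leaving out each library; the method was tested on simulated data.

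Same-numbered libraries deviated together in cortex Dnmt3a1-/- (correlations 0.237, 0.376 and 0.184) and Dnmt3a1_delta_N (0.373, 0.24 and 0.419), where the numbers were taken as pairs from the values, since no label states a pairing. Values in every library are given for up to 5 called genes per role in cortex Dnmt3a1-/-, elsewhere for called genes up to 6 or, with none, the 2 of smallest p, and up to 3 called genes of each further list are named. The other 49 samples of the series were not analysed here. 1 gene of a further list is not reported here, and the counts of that list are left out with it.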

Additional observations from a re-analysis of the deposited data

Results flagged for a closer look

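The effect of Dnmt3a1-/- in cortex differed from that of Dnmt3a2-/- in cortex, by the test of the difference itself, for Msmo1 (-0.83), Sqle (-0.71), Dhcr7 (-0.70) and Cyp51 (-0.66), each on the log2 scale and each lower under Dnmt3a1-/-. In that test 0.12% of all genes were called lower, and without the second Dnmt3a1-/- library 1 of the 4 calls held. The effect in cortex differed from that in the nuclei labelled Dnmt3a1-/- for Dhcr7 (-0.64), lower in cortex. There 0.237% of all genes were called lower. The Dhcr7 call was lost with RLE scaling and when any 1 of the plain or Dnmt3a1-/- cortex libraries was left out.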

How the results depend on the processing

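In cortex Dnmt3a1-/-, all 22 calls held with DESeq2, RLE scaling, no filter and the replicate block. With all 8 wild type libraries 17 calls held, 4 missed the threshold and Scd1 reversed (0.0043). In that fit 18 members were lower and 1 higher, when 1544 of all 16415 genes were called lower and 1565 higher. Against the r and n libraries Scd1 (0.03 and 0.31) and Scd2 (0.16 and 0.13) reversed. Srebf2 missed the threshold against the r libraries, and Insig2 and Stard4 missed it against the n libraries. Against the r libraries 5 genes were higher, and the median was -0.27 against the n libraries. Without 1 library 16 to 22 genes were lower (16 without the third plain wild type or the first mutant library), with a median of -0.40 to -0.29. In Dnmt3a2-/- the median was -0.05 with all 8 controls and -0.02 to 0.03 without 1 library, when 0 to 1 genes were lower.

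In hippocampus DESeq2 gave 11 lower and 1 higher, no filter 14 and 1, and leaving out 1 library 0 to 10 lower. In nuclei the replicate block, where 2 pairs cannot show a pairing, gave 1 lower gene, and leaving out 1 library gave 0 to 1, with a median of -0.10 to 0.02. The block changed no member call in Dnmt3a1_delta_N or Dnmt3a2-/-. In hippocampus, where the numbers were not taken as pairs, it gave 5 lower: 4 of the 6 calls were kept, Sqle and Elovl6 missed the threshold (adjusted p = 0.066 and 0.065), and 1 other gene was called.

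Differences of effects, Dnmt3a1-/- minus Dnmt3a2-/-: DESeq2 gave 12 lower genes (121 of all 16611 genes were lower) and no filter 12 (373 of 25609). Without 1 plain or Dnmt3a1-/- library 1 (4 of 16550) to 5 (37 of 16543) were lower. Without 1 r or Dnmt3a2-/- library the median difference of the members was -0.36 to -0.30. Against Dnmt3a1_delta_N, DESeq2 gave 8 (48 of 16456), no filter 5 (30 of 26037) and leaving out 1 library 0 to 6. Against nuclei, RLE scaling gave 0, no filter 4 and leaving out the first plain wild type library 0. Between wild type series, leaving out 1 library gave 7 to 16 lower and 2 to 6 higher (r minus plain), 4 to 10 lower (n minus plain), and 0 to 4 lower and 2 to 9 higher (n minus r). The shares of all genes in the fits against nuclei and between wild type series are not set out here, so how unusual those counts are cannot be read from them. The cause was not tested. With 2 libraries a group and scarce genes such as Idi1, depth and replicate number limit what small differences can be seen.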
